A study of Mus musculus with 4 samples.

Results

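The G1 cyclins and their kinases were followed in RNA-Seq libraries of hematopoietic stem cells (HSCs). The 8 genes are *Ccnd1*, *Ccnd2*, *Ccnd3*, *Cdk4*, *Cdk6*, *Ccne1*, *Ccne2* and *Cdk2*. Their rows were picked by symbol, from a list made with earlier results of these data known. All 8 are among the 19354 genes with values. The libraries came from HSCs that were LSK, FLT3-, CD48- and CD150+, sorted by flow cytometry. The controls were Mx1-Cre; Id2+/+ mice, 14 in all, and the mutants were Mx1-Cre; Id2Fl/Fl mice, 15 in all, called Id2Δ/Δ once recombined. Mice of both groups carried the Cre transgene and received pIpC, and cells were taken 2 weeks later in 2 experiments. The mice were 8 to 16 weeks old. Each genotype has 2 libraries, called replicates 1 and 2, made from pooled HSCs. The labels do not say whether each library is 1 of the experiments, so p-values measure only the spread between these pools. The *Mx1* promoter responds to interferon and is not specific to HSCs, so the deletion is not confined to the sorted cells.

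D-type cyclins are made in response to growth signals and bind CDK4 and CDK6. These kinases phosphorylate the retinoblastoma (RB) protein and its relatives, which frees E2F factors to transcribe genes of S-phase entry, the E-type cyclins among them. E-type cyclins bind CDK2, which phosphorylates RB further and helps to fire replication origins. In HSCs, most of which are quiescent, the level of CDK6 is known to influence how fast a cell leaves quiescence. Much of the control of these proteins is through inhibitors, phosphorylation and degradation, none of which mRNA levels measure.

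The labels, the depth and the cells were checked first. Reads of *Id2*, the deleted gene, numbered 93 and 98 for Id2+/+ and 0 and 0 for Id2Δ/Δ, which is at least 36.6-fold lower against a floor of 3 reads per library. Depths recovered from the low values were 14200000 to 15700000 reads for Id2+/+ and 17800000 to 18800000 for Id2Δ/Δ. Across genes, Pearson's r of log2 values was 0.972 between the Id2+/+ libraries, 0.942 between the Id2Δ/Δ libraries and 0.950 to 0.964 between genotypes, so the Id2Δ/Δ libraries were less alike than any pair across genotypes. All 12 HSC markers had values, and their summed level was 4658 to 4759 CPM (reads scaled to a common library total) in Id2+/+ and 3316 to 3899 in Id2Δ/Δ. Of the 12, 4 had estimates above 0, and 2 were higher and 5 lower without overlap. Over all genes tested, 51.7% had estimates above 0, and 19.0% were higher and 15.8% lower without overlap. *Kit*, picked after its values were seen, was the most abundant HSC marker at 11.08 and 10.93 against 10.19 and 10.55 log2 CPM. Sums of megakaryocyte markers (497 to 552 against 565 to 636 CPM) and erythroid markers (85.7 to 104 against 108 to 127 CPM) did not overlap between genotypes. Of 8 tested megakaryocyte markers 6 were above 0, with 3 higher and 1 lower without overlap. Of 8 tested erythroid markers 4 were above 0, with 2 higher and 1 lower. *Pf4*, picked after its values were seen, was at 6.13 and 6.68 against 7.23 and 6.86 log2 CPM. The gap in the megakaryocyte sum rested on *Pf4* and that in the erythroid sum on *Tfrc*. In the erythroid sum *Tfrc*, also carried by dividing cells in general, was at 5.27 and 5.24 against 5.77 and 5.79 log2 CPM, while *Alas2*, an enzyme of erythroid heme synthesis, was at 2.05 and 1.96 against 1.60 and 1.04, both picked after their values were seen. The sums of neutrophil (170 to 276 against 142 to 259 CPM), monocyte and macrophage (215 to 226 against 206 to 277 CPM) and multipotent progenitor markers (371 to 429 against 367 to 406 CPM) overlapped. Of the multipotent progenitor markers, 3 of 5 were among the values. *Cd34*, picked after its values were seen, made up most of their sum (mean 341 CPM). Of the T-cell markers, 2 of 8 were among the values, summing to at most 26.2 CPM. *Hba-a1*, *Hba-a2*, *Mrc1* and *Cd14* had 0 reads in at least 1 library. The part of these differences in the results that follow was not tested. In bulk RNA, fewer cells of a type and less RNA per cell cannot be told apart.

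None of the 8 genes was called as different between Id2+/+ and Id2Δ/Δ HSCs. Their log2 differences, Id2Δ/Δ minus Id2+/+, ran from -0.07 for *Cdk6* to 0.26 for *Ccne2*, with a median of 0.10, and the median of all 15895 genes tested was 0.01. By limma with Benjamini-Hochberg adjustment over all genes tested, 0 of 8 were called at an adjusted p under 0.05, as were 0.0% of all genes. *Id2* itself, the deleted gene, was not called either (difference -7.31, limma adjusted p = 0.910). Not being called at this threshold therefore cannot tell an unchanged gene from a changed one. At an unadjusted p under 0.05 the count was 0 of 8, against 4.67% of all genes (1.72% higher and 2.95% lower in Id2Δ/Δ). The estimate was above 0 for 7 of 8 genes, against 51.7% of all genes. The libraries of the genotypes did not overlap for 2 of 8, against 34.8% of all genes. These were *Ccne2* and *Cdk2*, both higher in Id2Δ/Δ, against 19.0% of all genes, and 0 of 8 were lower, against 15.8%. Standard errors ran from 0.10 to 0.37, largest for *Ccnd1* and *Ccne1*.

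**Figure D1:**
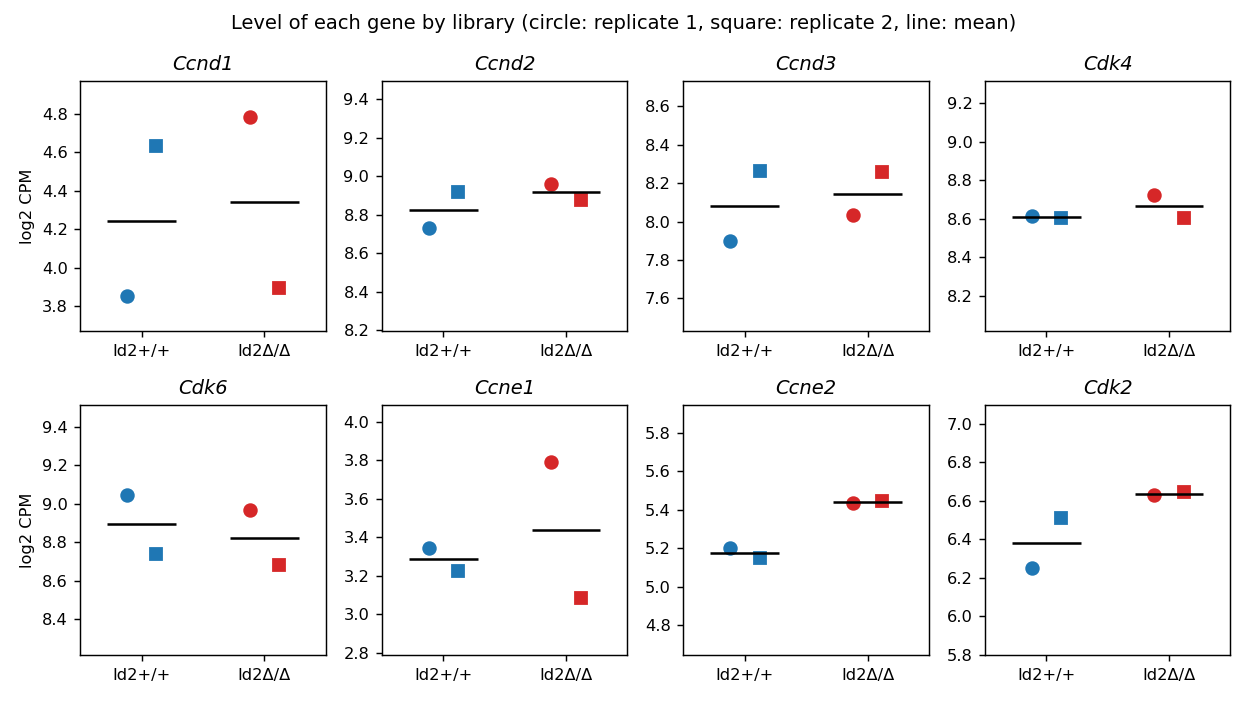
Level of each gene in every library, as log2 CPM, with Id2+/+ and Id2Δ/Δ libraries as separate points and each panel 1.3 log2 units tall. The genotypes overlap in 6 panels and are apart in those of Ccne2 and Cdk2, while Ccnd1 spans 3.85 to 4.79.

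**Figure D2:**
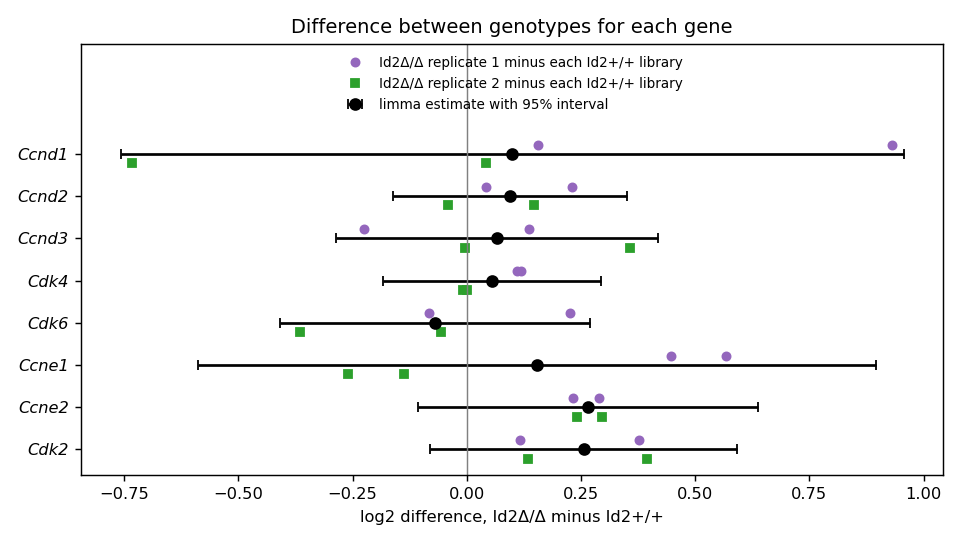
Log2 difference of each gene, Id2Δ/Δ minus Id2+/+, as the limma estimate with its 95% interval in black, and as the 4 differences between single libraries in colour. Every interval includes 0, and all 4 single-library differences lie above 0 for Ccne2 and Cdk2.

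The D-type cyclins came first. On GRCm38, *Ccnd1* spans chr7:144929931-144939925 and *Ccnd2* chr6:127125162-127152193, both on the minus strand, and *Ccnd3* chr17:47505051-47599691 on the plus strand. Near their start the 3 proteins carry a short motif that binds the RB pocket. The DNA that codes for it and the bases after it were compared position by position, without gaps. The stretches are shown because the genes were counted separately and reads from one could only be mistaken for another where such sequence is near-identical. They lie at chr7:144939646-144939681 on the minus strand (*Ccnd1*, exon 1), chr6:127150732-127150767 on the minus strand (*Ccnd2*, exon 1) and chr17:47593661-47593696 on the plus strand (*Ccnd3*, exon 3 of the longest coding transcript) of GRCm38. Capitals mark the bases that differ from *Ccnd1*, 9 of 36 in *Ccnd2* and 19 of 36 in *Ccnd3*.
Ccnd1: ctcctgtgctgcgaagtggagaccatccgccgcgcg
Ccnd2: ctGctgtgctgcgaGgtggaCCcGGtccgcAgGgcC
Ccnd3: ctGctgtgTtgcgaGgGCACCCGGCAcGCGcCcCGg
Over the whole coding sequence, nucleotide identity was 66.9% between *Ccnd1* and *Ccnd2*, 62.6% between *Ccnd1* and *Ccnd3* and 65.8% between *Ccnd2* and *Ccnd3*. No stretch of 50 bases was shared between transcripts of any pair of the 8 genes.

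*Ccnd2*, the D-type cyclin induced by cytokines in many blood cells, was at 8.73 and 8.92 log2 CPM in the Id2+/+ libraries and at 8.96 and 8.88 in the Id2Δ/Δ libraries. The genotypes overlapped, with only the first Id2+/+ library standing lower. The difference was 0.09 (SE 0.11, 95% interval -0.16 to 0.35, limma adjusted p = 0.924). It was 0.0011 without Id2+/+ replicate 1, and 0.19 without Id2+/+ replicate 2 or once a trend with transcript length was taken off. *Ccnd3*, which is needed for the expansion of lymphoid and erythroid precursors, was at 7.90 and 8.26 in Id2+/+ and at 8.03 and 8.26 in Id2Δ/Δ. Here replicate 2 was the higher library in both genotypes, and the spread within a genotype was larger than the gap between them. Its difference was 0.07 (SE 0.15, 95% interval -0.29 to 0.42, limma adjusted p = 0.954), and it was -0.12 without Id2+/+ replicate 1 and -0.04 without Id2Δ/Δ replicate 2.

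*Ccnd1*, the D-type cyclin that growth factors induce in many tissues, varied most of the 8. It was at 3.85 and 4.63 log2 CPM in Id2+/+ and at 4.79 and 3.90 in Id2Δ/Δ, so each genotype held 1 high and 1 low library. In reads these were 205 and 385 against 486 and 277. The exact Poisson 95% intervals of the CPM, which cover counting error only, were 12.5 to 16.5 and 22.3 to 27.3 in Id2+/+ and 25.1 to 30.1 and 13.2 to 16.7 in Id2Δ/Δ. The high and the low library of each genotype were thus apart by more than counting error. Between genotypes the difference was 0.10 (SE 0.37, 95% interval -0.76 to 0.96, limma adjusted p = 0.971), and it was -0.35 without Id2Δ/Δ replicate 1 and -0.29 without Id2+/+ replicate 1. Of the 50-base stretches of *Ccnd1* transcripts, 21.6% also lie on transcripts of *Oraov1* on the opposite strand, and strand use in counting is not given in the sources used here. *Oraov1* itself was at 4.95 and 5.07 against 5.48 and 4.93 log2 CPM.

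**Figure D3:**
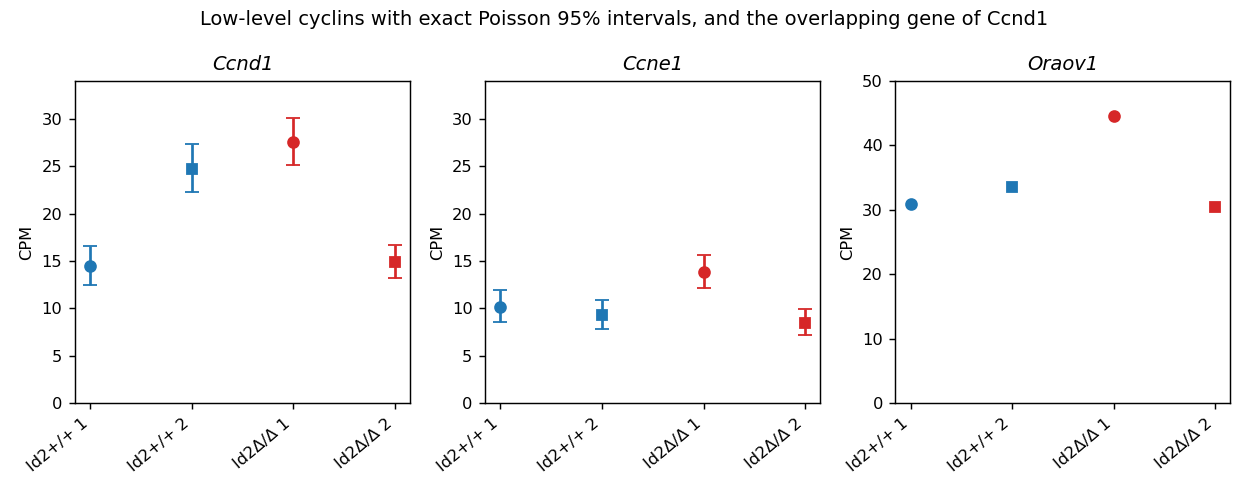
CPM of Ccnd1 and Ccne1 in each library with exact Poisson 95% intervals, and CPM of Oraov1, the gene that overlaps Ccnd1 on the opposite strand. For Ccnd1 the intervals of the 2 libraries of a genotype do not meet (12.5 to 16.5 against 22.3 to 27.3 in Id2+/+), and for Ccne1 the first Id2Δ/Δ library (12.1 to 15.6) stands above the rest.

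The kinases of the D-type cyclins were described next, together with CDK2. *Cdk4* spans chr10:127063534-127067920 and *Cdk6* chr5:3341485-3531008, both on the plus strand, and *Cdk2* chr10:128697939-128705031 on the minus strand of GRCm38. All 3 bind their cyclin partly through 1 helix, whose DNA is shown, with some bases on either side, because it is a part of the kinases that meets the cyclins. The stretches lie in exon 2 of each gene, at chr10:128703955-128703999 on the minus strand (*Cdk2*), chr10:127064371-127064415 on the plus strand (*Cdk4*) and chr5:3344517-3344561 on the plus strand (*Cdk6*) of GRCm38. Capitals mark bases that differ from *Cdk2*, 26 of 45 in *Cdk4* and 22 of 45 in *Cdk6*.
Cdk2: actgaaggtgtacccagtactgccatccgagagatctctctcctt
Cdk4: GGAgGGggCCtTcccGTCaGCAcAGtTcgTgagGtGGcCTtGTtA
Cdk6: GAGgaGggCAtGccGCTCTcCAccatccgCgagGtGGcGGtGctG
The coding sequences of *Cdk4* and *Cdk6* were 63.0% identical.

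*Cdk4* was the steadiest of the 8 within Id2+/+, at 8.61 and 8.61 log2 CPM, and was at 8.73 and 8.61 in Id2Δ/Δ. Only the first Id2Δ/Δ library stood apart. The difference was 0.06 (SE 0.10, 95% interval -0.18 to 0.29, limma adjusted p = 0.944) and -0.0045 without that library. Transcripts of *Cdk4* overlap those of *Tspan31* on the opposite strand. *Cdk6*, the kinase partner prominent in blood stem and progenitor cells, was at 9.05 and 8.74 in Id2+/+ and at 8.97 and 8.68 in Id2Δ/Δ. In both genotypes replicate 1 was the higher library. Its difference of -0.07 (SE 0.15, 95% interval -0.41 to 0.27, limma adjusted p = 0.948) was the only one below 0, and it was 0.10 once a trend with transcript length was taken off each library, 0.085 without Id2+/+ replicate 1 and 0.07 without Id2Δ/Δ replicate 2. *Cdk6* has the longest transcript of the 8, 11525 bases, against 2053 for *Cdk4*.

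The promoter of *Cdk4* was searched for letters bound by known regulators of the cycle. It is shown because E-boxes of the form CACGTG are bound by MYC with MAX, and *Cdk4* is a known MYC target. These are the 250 bases before the start in RefSeq (GRCm38.p6), chr10:127063285-127063534 on the plus strand, with each CANNTG in capitals.
Cdk4 promoter: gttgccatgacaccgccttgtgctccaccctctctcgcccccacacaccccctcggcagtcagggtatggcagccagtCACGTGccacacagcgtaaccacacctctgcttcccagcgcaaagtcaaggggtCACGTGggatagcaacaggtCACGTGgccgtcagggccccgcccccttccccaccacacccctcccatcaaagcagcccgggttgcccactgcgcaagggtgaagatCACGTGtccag
It held 4 matches to CANNTG, all 4 of them CACGTG. Of 32851 promoters of the same length, 66.2% held a CANNTG, 6.02% a CACGTG and 0.0213% (7 promoters) 4 or more CACGTG. The motif reads the same on both strands, and each CACGTG also holds ACGTG, the core letters of the hypoxia response element, found in 16.6% of promoters on either strand.

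The E-type cyclins came next, *Ccne1* at chr7:38097984-38107534 on the minus strand and *Ccne2* at chr4:11191351-11204779 on the plus strand of GRCm38. *Ccne1* was at 3.34 and 3.22 log2 CPM in Id2+/+ and at 3.79 and 3.08 in Id2Δ/Δ, so the Id2Δ/Δ libraries lay on both sides of the Id2+/+ libraries. These values rest on 147 and 149 against 247 and 153 reads. The difference was 0.15 (SE 0.32, 95% interval -0.59 to 0.90, limma adjusted p = 0.948), and without Id2Δ/Δ replicate 1 it was -0.20. *Ccne2* was at 5.20 and 5.15 in Id2+/+ and at 5.44 and 5.44 in Id2Δ/Δ. Both genotypes were tight, and they did not overlap. The difference was 0.26 (SE 0.16, 95% interval -0.11 to 0.64, limma adjusted p = 0.910), a fold of 1.20 with an interval of 0.928 to 1.55. Leaving out any 1 library kept it between 0.24 and 0.29. *Ints8*, which holds 14.4% of the 50-base stretches of *Ccne2* on the opposite strand, was at 5.88 and 5.85 against 5.80 and 5.90 log2 CPM. The coding sequences of *Ccne1* and *Ccne2* were 58.9% identical.

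*Cdk2*, the partner of the E-type and A-type cyclins, was at 6.25 and 6.51 log2 CPM in Id2+/+ and at 6.63 and 6.65 in Id2Δ/Δ. Both Id2Δ/Δ libraries lay above both Id2+/+ libraries, by 0.12 to 0.40 between single libraries. The limma difference was 0.26 (SE 0.14, 95% interval -0.08 to 0.59, adjusted p = 0.910), a fold of 1.19 with an interval of 0.946 to 1.51. It was 0.13 without Id2+/+ replicate 1 and 0.39 without Id2+/+ replicate 2. As for *Ccne2*, the megakaryocyte and erythroid sums also stood higher in both Id2Δ/Δ libraries, with gaps that rested on *Pf4* and *Tfrc*. Of 8 tested markers in each list, 6 megakaryocyte and 4 erythroid markers were above 0. The part of these sums was not tested. The promoter of *Cdk2* is shown for its match to the E2F letters TTTNNCGC, searched on both strands, which stand in capitals 140 bases before the start. It is chr10:128705052-128705301 on the minus strand in RefSeq (GRCm38.p6).
Cdk2 promoter: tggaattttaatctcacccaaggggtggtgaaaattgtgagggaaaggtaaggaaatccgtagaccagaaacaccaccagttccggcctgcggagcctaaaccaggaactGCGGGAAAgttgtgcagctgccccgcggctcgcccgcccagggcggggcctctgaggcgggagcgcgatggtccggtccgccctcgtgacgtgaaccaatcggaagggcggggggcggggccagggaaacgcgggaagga
This motif was in 4.28% of the 32851 promoters. Promoter sequences were matched for 5 of 8 genes, in 6 windows. *Cdk6* also held 1 match, 198 bases before its start, and *Cdk4*, *Ccne1* and both windows of *Ccnd3* held 0. *Ccnd1*, *Ccnd2* and *Ccne2* had no entry.

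Levels of different genes were compared as CPM per kilobase of the longest annotated transcript. *Cdk4* had the highest level, 194 CPM per kilobase over the 4 libraries. *Ccnd2* and *Ccnd3* followed at 74.1 and 72.1, and their order changed between libraries. Next were *Cdk6* at 40.5, *Cdk2* at 28.1 and *Ccne2* at 13.2, each below the one before it in all 4 libraries. *Ccnd1* and *Ccne1* were lowest, at 5.46 and 5.23, and could not be ordered either. Thus the D-type cyclins were measured almost wholly as *Ccnd2* and *Ccnd3*.

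Shares within a library do not change when all its values are multiplied by 1 factor, but matching the libraries rank by rank, as in the deposited values, can change them. *Ccnd2* made up 50.5% and 47.0% of the D-type cyclin level per kilobase in Id2+/+ and 51.1% and 47.2% in Id2Δ/Δ. *Ccnd3* made up 46.6% and 48.9% against 44.1% and 50.3%, and *Ccnd1* 2.91% and 4.07% against 4.79% and 2.53%. *Cdk6* was 19.4% and 16.3% of the 2 kinases against 17.4% and 15.8%, and *Ccne1* was 29.3% and 28.4% of the E-type cyclins against 32.4% and 22.6%. In each of these the genotypes overlapped, and the exact two-sided permutation p was 0.667 for *Ccnd2* and *Cdk6* and 1 for the others, where 0.333 is the smallest that 2 libraries against 2 can give. The share of *Cdk6* rests on its transcript length, since in plain CPM it was 57.4% and 52.3% against 54.1% and 51.3%. Summed over both genes, the E-type cyclins were at 17.3 and 16.5 CPM per kilobase in Id2+/+ and at 21.3 and 18.7 in Id2Δ/Δ. These sums did not overlap (exact permutation p = 0.333, the smallest possible here), and neither did 34.8% of all single genes. Most of the sum was *Ccne2*, at 12.3 and 11.8 against 14.4 and 14.5, while *Ccne1* overlapped. The sum thus adds little to the result for *Ccne2*. The summed D-type cyclins, 133 and 162 against 154 and 157, and the summed *Cdk4* and *Cdk6*, 237 and 227 against 250 and 225, overlapped.

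**Figure D4:**
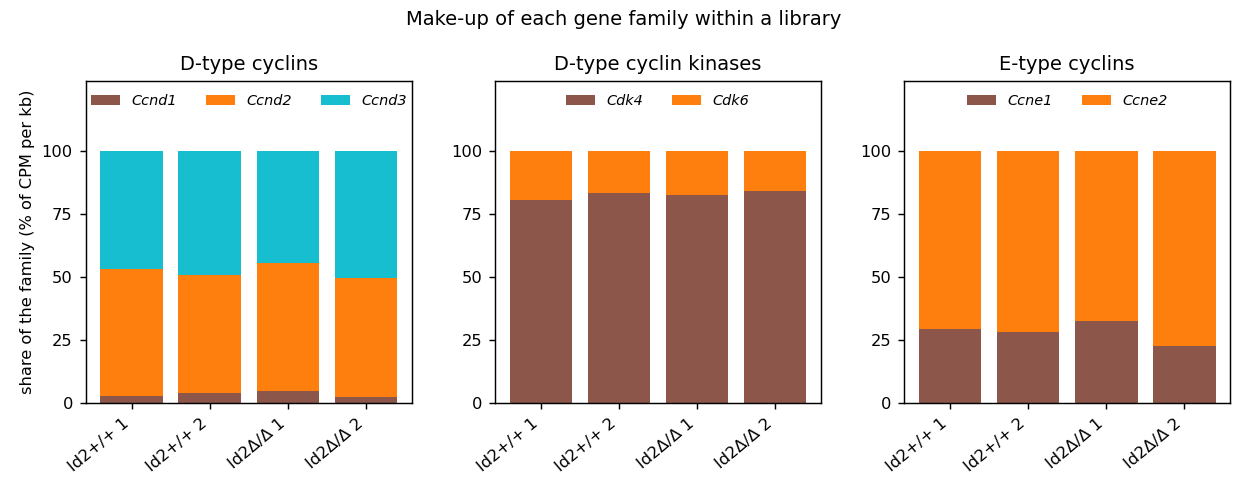
Share of each gene in its family, in percent of CPM per kilobase, stacked to 100 for every library. Ccnd1 is a thin band of 2.53% to 4.79% in all 4 libraries, and Cdk6 is 15.8% to 19.4% of the 2 kinases.

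The other genes of the G1 and S-phase entry pathway were read from 7 lists of 64 genes, of which 60 were tested. At an adjusted p under 0.05, 0 of 60 were called, and at an unadjusted p under 0.05 there were 8 of 60, against 4.67% of all genes. Without overlap, 13 of 60 were higher in Id2Δ/Δ and 7 lower, against 19.0% and 15.8% of all genes. The adjusted p was at least 0.910 for every gene of the lists. Genes named below only because their libraries did not overlap were picked after their values were seen.

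Of the CDK inhibitors, 5 of 7 were tested, 2 had estimates above 0 and 3 below, and the libraries of all 5 overlapped. *Cdkn1a*, which codes for p21, was at 2.93 and 3.88 log2 CPM in Id2+/+ and at 1.27 and 3.49 in Id2Δ/Δ, with a difference of -1.02 (SE 0.69). *Cdkn1c*, which codes for p57, an inhibitor known for its part in HSC quiescence, differed by -0.31 (SE 0.21), and *Cdkn2d* by 0.04 (SE 0.15). The RB, E2F and DP genes were split, 7 above and 6 below 0, with *E2f2* and *E2f8* higher and *E2f3* and *Rbl2* lower without overlap. *E2f2* was at 3.32 and 2.81 against 3.69 and 4.05 log2 CPM, a difference of 0.81 (SE 0.30). *E2f8*, a repressor of the E2F family, differed by 0.35 (SE 0.18), and *Tfdp1*, an E2F partner, by 0.14 (SE 0.13).

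Among the pathway lists, the later cyclins and their kinase had the highest median, 0.42. In that list 5 of 6 genes were tested, and all 5 had estimates above 0. *Ccnb1* and *Ccnb2*, the cyclins of mitotic entry, differed by 0.50 (SE 0.14) and 0.53 (SE 0.16), and *Ccna2*, which binds CDK2 in S phase, by 0.42 (SE 0.16). These and *Cdk1* did not overlap between genotypes. Proliferation markers were above 0 in 10 of 12, with a median of 0.11, and *Top2a*, *Mcm3*, *Pcna* and *Mcm7* did not overlap. Of these, *Mcm3* and *Mcm7* differed by only 0.14 (SE 0.11) and 0.09 (SE 0.11). Among all genes tested, 51.7% had estimates above 0 and 19.0% were higher without overlap. *Top2a*, the topoisomerase of dividing cells, was at 8.03 and 8.27 against 8.50 and 8.49 log2 CPM (difference 0.34, SE 0.12). *Cdc6* differed by 0.34 (SE 0.24) and *Mcm6* by -0.01 (SE 0.11).

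The regulators of CDK activity and of cyclin turnover were split evenly, 3 above and 3 below 0 and 6 above and 6 below. *Wee1*, an inhibitory kinase of CDK1 and CDK2, differed by -0.19 (SE 0.14), *Cdk7*, the CDK-activating kinase, by -0.15 (SE 0.14) and *Cdc37*, a chaperone partner for CDK4, by 0.11 (SE 0.12). *Rbx1*, the RING subunit of cullin ligases, and *Cks1b*, which helps the ligase for p27, each differed by 0.36 (SE 0.14), and *Ddb1* by -0.10 (SE 0.12). Without overlap, *Rbx1*, *Cks1b* and *Ccnh* were higher and *Cul4a*, *Ambra1*, *Gsk3b* and *Cdk7* lower. Among the atypical cyclins and kinases, 3 were above and 4 below 0. *Cdk14* was at 5.21 and 5.20 against 4.17 and 4.67 log2 CPM, a difference of -0.79 (SE 0.22), and its libraries did not overlap, while *Ccny*, its cyclin, differed by 0.33 (SE 0.32) and *Ccni* by 0.09 (SE 0.13).

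**Figure D5:**
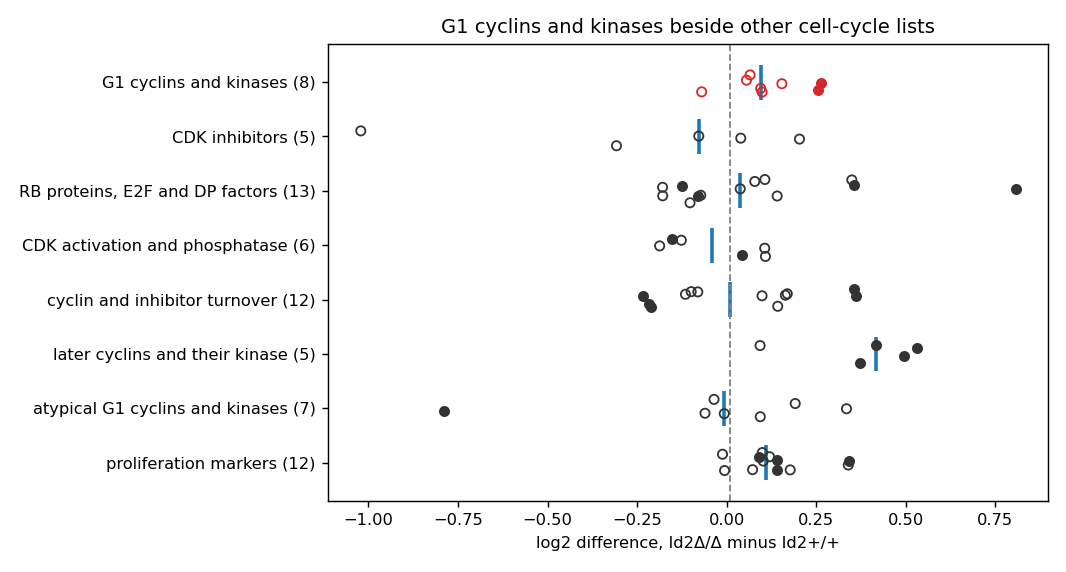
Log2 difference, Id2Δ/Δ minus Id2+/+, of each tested gene by list, filled where the libraries of the genotypes do not overlap, with the median of each list as a blue line and that of all genes tested dashed. The later cyclins and their kinase lie above 0 with a median of 0.42, and the CDK inhibitors have a median of -0.08.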

How the data were processed

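RNA-Seq was done on RNA of sorted mouse HSCs, and groups were taken from the labels (2 Id2+/+ and 2 Id2Δ/Δ libraries). The values the authors deposited are log2 CPM of 19354 genes. This unit was read from the column sums, and at 88.4% of ranks the 4 libraries held values within 0.1 of each other, so the 4 columns share nearly 1 distribution and equal values can recur between libraries. The submitters' processing notes name CASAVA 1.8.4, Trimmomatic 0.30, TopHat2 2.0.8, RSEM and STAR and the builds mm9 and NCBIM37, with no role or order. Whether strand was used in counting is not given in the sources used here.

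Values were tested as deposited with limma 3.58.1 in R 4.3.3 (lmFit and trended eBayes, two-sided, no term besides genotype) on the 15895 genes averaging 1 CPM or more, with Benjamini-Hochberg adjustment. The steps were tested on simulated data. Reads were recovered below 32 CPM (62.1% of values) from the order of distinct values, so no count model was run. Shares were compared by exact permutation. Coordinates, transcript lengths and coding sequences are from GENCODE M21 on GRCm38, which is not the build of the labels, through gene identifiers (99.7% matched, 82.0% with the same version). Promoters are from RefSeq on GRCm38.p6.

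The text names all 8 members, *Id2*, and of each pathway list the 2 genes with the smallest p and the 1 with the highest mean. For the 2 members with the largest range, the 3 genes most like them are named. Marker lists are given by counts and sums, and 1 list is not reported here. The members and lists were chosen with earlier results of these data known. Alternatives covered the pseudocount, scaling, filter, trend, replicate block, transcript length, threshold and leaving out each library.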

Additional observations from a re-analysis of the deposited data

How the results depend on the processing

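With 2 libraries per genotype, the 95% interval of every one of the 8 genes included 0. Over 104 alternative values of the 8 log2 differences, 0 were called. With all 4 libraries kept, these fits called 0 of all genes tested, or 1 with the replicate block. The lack of calls thus says little about the 8 genes. The sign turned in 10 of the 104 values, none of which was for *Ccnd2*, *Ccne2* or *Cdk2*. When 1 library was left out, *Ccnd2* ran from 0.0011 to 0.19, so that 1 library took it close to 0, *Ccne2* from 0.24 to 0.29 and *Cdk2* from 0.13 to 0.39. *Ccnd1* ran from -0.35 to 0.54, *Ccnd3* from -0.12 to 0.25, *Cdk4* from -0.0045 to 0.12, *Cdk6* from -0.22 to 0.085 and *Ccne1* from -0.20 to 0.51. Taking off a trend with transcript length turned *Cdk6* to 0.10, alone and with the replicate block. The cause was not tested. At an unadjusted p under 0.05 the counts were 742 of all genes and 8 of the pathway genes, in place of 0 and 0.

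The labels do not say that a replicate number marks 1 experiment, and deviations of same-numbered libraries correlated at 0.0592 over all genes tested and at 0.144 over the 7377 with a mean of at least 32 CPM. With 2 pairs this does not settle whether the numbers pair the libraries. With the replicate block 1 gene of all was called, and also 1 with the block and the length correction, while the lowest adjusted p among the 8 genes was 0.919 under the block. Rescaling the libraries by median ratios moved them by at most 0.02 on the log2 scale. Depth limits *Ccne1* most, at 147 to 247 reads per library.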

Other observations

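*Gm17590*, an antisense gene that lies within *Cdk6* on the opposite strand and holds 2.29% of its 50-base stretches, was at 4.13 and 3.84 log2 CPM in Id2+/+ and at 2.38 and 3.07 in Id2Δ/Δ. Its difference was -1.26 (SE 0.32, limma adjusted p = 0.910), so it was not called. It was picked after its values were seen. *Tspan31*, which overlaps *Cdk4* on the opposite strand, was at 6.27 and 6.17 against 6.41 and 6.50 (difference 0.24, SE 0.13). Without strand, reads inside the stretches that such a pair shares cannot be told apart.

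The genes whose 4 values, centred on their mean, lay closest to those of *Ccnd1* were *Zbtb33*, *Mamdc4* and *Fam131a*, at root mean square differences of 0.04, 0.05 and 0.05 on the log2 scale, and 13 tested genes lay within 0.1. For *Ccne1* they were *Ggta1*, *Adgrg7* and *Zfp101*, at 0.01, 0.02 and 0.02, with 242 genes within 0.1.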
